A study of Sus scrofa with 60 samples.

Results

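The expression of 10 genes of NF-κB signalling was followed in the liver of neonatal pigs: the kinase gene IKBKE, the subunit genes RELA, RELB, NFKB1, and NFKB2, the inhibitor genes NFKBIA and NFKBIE, and the regulators TNFAIP3, BIRC3, and BCL3. They were taken by gene symbol from the 30335 named features of the count table. All 10 passed the filter on low counts that left 16210 genes, with 34 or more reads on each of them in every liver. RNA-Seq of poly-A RNA was available as 60 libraries from preterm pigs of mixed Landrace and Hampshire breeding, of both sexes, delivered by cesarean section, with liver collected at day 14. Each pig had a bile duct ligation (BDL), which tied off the cystic and common bile ducts and serves as a model of obstructive cholestasis, or a sham operation in which the abdomen was opened and the liver handled. All pigs carried a jugular catheter and started on parenteral nutrition. ENT pigs were moved to an enteral milk replacer formula, whereas the other pigs stayed on parenteral nutrition with a soy lipid emulsion (SLE, Intralipid) or a mixed lipid emulsion (MLE, SMOFlipid). The groups were ENT-sham (n = 12), ENT-BDL (n = 10), SLE-sham (n = 10), SLE-BDL (n = 11), MLE-sham (n = 9), and MLE-BDL (n = 8). In the enteral arm, feeding route and lipid source changed together and cannot be told apart.

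NF-κB is a family of transcription factors that bind DNA as dimers. In resting cells most dimers are held in the cytoplasm by inhibitor proteins, the IκBs. Cytokine and Toll-like receptors activate the IκB kinase (IKK) complex, which marks the inhibitors for degradation, and a slower, noncanonical route processes the NFKB2 precursor so that it can pair with RELB. Many inhibitors and feedback enzymes of the pathway are themselves NF-κB target genes, so their mRNA is often read as a record of past activity. IKBKE encodes IKKε, a relative of the IKK kinases that is itself inducible by inflammatory signals and that also acts on interferon regulatory factors.

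The libraries held 14469788 to 21374161 counted reads each (median 17254606), and levels are given as CPM, the read count of a gene scaled to its library size with TMM. One pair of libraries stood apart before any comparison. ENT-sham replicate 2 and ENT-BDL replicate 1 were the closest of all 1770 pairs of libraries, with a chi-square per degree of freedom of 1.87 against 15 for the next pair, although their labels name different operations. IKBKE read 10.3 CPM in the library labelled ENT-sham replicate 2 and 10.2 CPM in the library labelled ENT-BDL replicate 1. Some tissue markers went against the sham label of the first. Its summed cholangiocyte markers stood at 333 CPM, against 58.3 to 86 CPM in the other 11 ENT-sham livers and 182 to 315 CPM in the other 9 ENT-BDL livers, and its chemokine CXCL8 at 45.3 CPM, against 0.247 to 1.39 CPM and 16.2 to 65.2 CPM. Its hepatocyte sum (62200 CPM) lay below both sets of livers (98200 to 135000 and 76700 to 116000 CPM). Its stellate cell sum (1470 CPM) lay above both (385 to 828 and 330 to 1250 CPM). Its neutrophil, T and NK cell, B and plasma cell, endothelial, and erythroid sums lay inside both ranges. The library keeps its labelled group here. Counts of calls among the 10 genes that rest on the ENT groups are also given without this pair, and so are values of other genes where stated. ENT-BDL replicates 4 and 5 stood apart in RELA and BCL3, which are given with and without them. One pig identifier appears on both replicate 9 and replicate 10 of SLE-sham, whose counts differed far more (a ratio of 31.7), and both were kept. The libraries may therefore come from fewer pigs than their number, and each library is counted as a pig here. A low level in these whole-tissue samples can reflect fewer cells of a type or less RNA per cell, which cannot be told apart.

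BDL in enterally fed pigs came with higher mRNA of most of the NF-κB genes. Tested over 16210 genes with edgeR (adjusted p below 0.05), 7 of the 10 genes rose in ENT-BDL against ENT-sham, where 8.78% of all genes were higher: IKBKE, RELB, NFKB2, NFKBIA, NFKBIE, TNFAIP3, and BIRC3. None fell, where 8.66% of all genes were lower. With a change over 2-fold also required, IKBKE and RELB rose, against 2.18% of all genes. The median log2 fold change of the 10 genes was 0.60, beside 0.0041 for all tested genes. On MLE, 3 genes rose with BDL (IKBKE, NFKB1, and NFKBIE), where 7.23% of genes were higher and 7.20% lower. Fits that left out a single pig gave counts from 2 to 6 on MLE. The count of 6 came without MLE-sham replicate 2, adding RELB, NFKB2, and BCL3, where 7.55% of genes were higher. That pig was singled out for its high levels of these same genes, so the larger count is not further evidence. With all pigs, IKBKE passed 2-fold on MLE, against 2.46% of genes. On SLE none of the 10 genes passed the test in either direction, where 2.86% of genes were higher and 1.68% lower. No gene of the 10 reached an unadjusted p under 0.05 on SLE (edgeR), and DESeq2 made 0 calls there as well. Without the matching pair of ENT libraries the same 7 genes rose on ENT, where 10.7% of all genes were then higher, with log2 fold changes of 1.25 for RELB, 0.85 for NFKBIE, 0.80 for NFKB2, 0.70 for NFKBIA, 0.66 for TNFAIP3, and 0.52 for BIRC3. IKBKE, BIRC3, and BCL3 are among the inflammation genes that the study displayed from these same libraries, so their direction is not independent evidence.

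**Figure D1:**
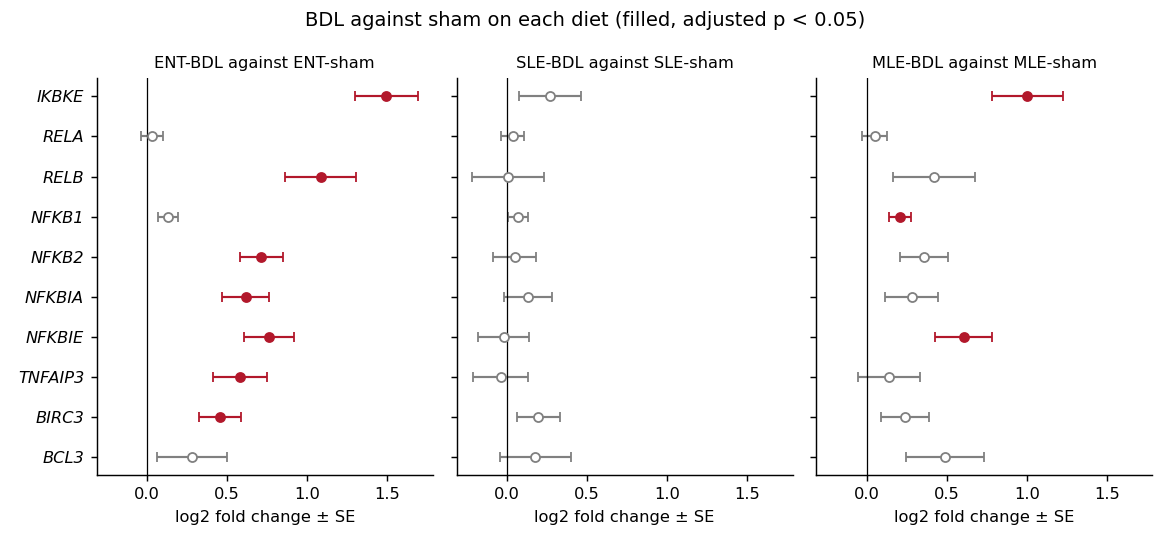
Log2 fold change (x axis, ± SE of the edgeR model) of the 10 NF-κB genes (y axis) for BDL against sham on each diet. Filled red points passed the adjusted p threshold: 7 on ENT, 0 on SLE, and 3 on MLE (2 to 6 in fits without a single pig). IKBKE was the farthest from 0 on ENT (1.5) and MLE (1.00).

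IKBKE (gene 100519508, Sscrofa11.1 chr9:67123055-67147991, plus strand) had the widest separation of groups. In ENT-sham its level ran from 2.08 to 10.3 CPM with a median of 3.53 (mean 4.28 ± 2.19 SD, n = 12), and in ENT-BDL from 7.98 to 16.5 CPM with a median of 11.6 (12.2 ± 2.54, n = 10). The sham pig at 10.3 CPM was replicate 2, the library that matched a BDL library, and the next sham pig stood at 6.67 CPM. Thus 7 of 10 ENT-BDL livers lay above all 12 sham livers, and without the matching pair the groups did not overlap, with ENT-sham up to 6.65 CPM and ENT-BDL down to 7.92 CPM. The log2 fold change was 1.5 ± 0.19 SE (2.82-fold, edgeR adjusted p = 1.57e-07) with all libraries and 1.72 (adjusted p = 1.47e-10) without the pair.

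In MLE-sham, IKBKE ran from 3.90 to 9.67 CPM with a median of 5.46 (5.66 ± 1.80, n = 9), and in MLE-BDL from 8.88 to 13.3 CPM with a median of 11.3 (11.4 ± 1.41, n = 8). Only MLE-sham replicate 2 reached the range of the ligated pigs, and the next sham pig stood at 6.74 CPM. The log2 fold change was 1.00 ± 0.22 SE (2.01-fold, adjusted p = 0.000786).

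The SLE groups looked different. In SLE-sham, IKBKE ran from 5.90 to 17.4 CPM with a median of 9.45 (10.9 ± 4.02, n = 10), and in SLE-BDL from 6.05 to 17.8 CPM with a median of 13.8 (13.1 ± 3.93, n = 11). The ranges nearly coincided, since the sham pigs were already spread over the levels seen after ligation on the other diets. The log2 fold change was 0.27 ± 0.19 SE (95% interval -0.12 to 0.66, adjusted p = 0.494).

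**Figure D2:**
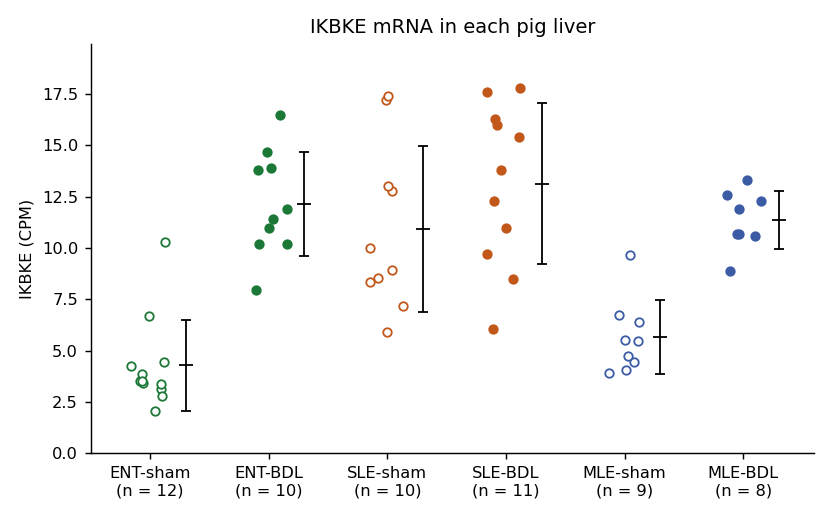
IKBKE level in CPM (y axis) in each of the 60 livers by group (x axis), with open points for sham, filled points for BDL, and bars for mean ± SD. ENT-sham and MLE-sham lie low except for replicate 2 of each (10.3 and 9.67 CPM), while SLE-sham spreads from 5.90 to 17.4 CPM.

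Ordered by mean level, the groups ran ENT-sham, MLE-sham, SLE-sham, MLE-BDL, ENT-BDL, and SLE-BDL for IKBKE. Of the neighbours in this order, MLE-sham and SLE-sham differed (adjusted p = 0.0116), a call lost with the number in the pig identifier as a term. The other neighbouring groups did not differ beyond their spread (adjusted p from 0.165 to 0.923). For the other 9 genes no pair of neighbouring groups passed the test. The order itself varied: ENT-sham was the lowest group for IKBKE, RELB, NFKB2, NFKBIE, TNFAIP3, BCL3, and RELA, and MLE-sham was the lowest for NFKB1, NFKBIA, and BIRC3.

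Among the subunits, RELA, which encodes the main activating subunit of canonical NF-κB (chr2:6594869-6602684, plus strand), had a narrow range of group levels. Its group means lay between 79.9 and 86.5 CPM, it was called in 0 of 9 group comparisons, and its log2 fold changes with BDL were 0.03 ± 0.07 on ENT, 0.04 ± 0.07 on SLE, and 0.05 ± 0.08 on MLE. In ENT-BDL replicates 4 and 5 stood at 48 and 57.7 CPM and the other 8 livers at 78.2 CPM or more, and without those pigs RELA was higher with BDL on ENT by 0.16 (adjusted p = 0.0167). Per kilobase of gene length RELA was the most abundant of the 10 genes, at 49.8 CPM per kb over all pigs, ahead of NFKBIA at 41.3 CPM per kb. In ENT-BDL the order was reversed, with NFKBIA at 52.8 and RELA at 49.4 CPM per kb. Over all pigs IKBKE was the least abundant, at 2.21 CPM per kb, and the remaining genes lay between 2.82 CPM per kb (TNFAIP3) and 12.2 CPM per kb (BIRC3). In MLE-BDL TNFAIP3 lay below IKBKE, at 2.47 and 2.65 CPM per kb.

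RELB, the subunit of the noncanonical route (chr6:51444670-51480350, plus strand), followed the pattern of IKBKE on ENT. It ran from 4.22 to 18.3 CPM in ENT-sham (median 5.92) and from 13.9 to 23.2 CPM in ENT-BDL (median 17.0). The highest sham library was again replicate 2, followed by 15.2 CPM in replicate 7, so the groups overlapped through those pigs. RELB rose by 1.08 ± 0.22 SE on the log2 scale (2.12-fold, adjusted p = 0.000322). SLE-sham and SLE-BDL had medians of 14.2 and 14.9 CPM, with a log2 fold change of 0.01 (95% interval -0.44 to 0.46). In MLE-sham RELB ran from 3.29 to 23.0 CPM (median 8.38), and in MLE-BDL from 10.7 to 15.5 CPM (median 12.4). One MLE-sham pig, replicate 2, lay above every ligated MLE pig while the other sham pigs stayed at or below 9.43 CPM. With that pig included, the log2 difference was 0.42 ± 0.25 SE (adjusted p = 0.280), and without it 0.71 (adjusted p = 0.035).

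NFKB2, the precursor that pairs with RELB (chr14:113406412-113414177, plus strand), ran from 18.5 to 44.0 CPM in ENT-sham (median 21.8) and from 31.7 to 47.8 CPM in ENT-BDL (median 42.4). It rose by 0.71 ± 0.13 SE on the log2 scale (1.64-fold, adjusted p = 8.29e-05), with replicates 2, 7, and 10 the only sham libraries inside the BDL range. On SLE the medians were 29.4 CPM in sham and 34.1 CPM in BDL pigs, with wide overlap and a log2 difference of 0.05 ± 0.14 SE. On MLE the medians were 23.9 and 33.8 CPM, and all 8 ligated pigs exceeded every sham pig other than replicate 2, which stood at 47.7 CPM. The log2 difference of 0.36 ± 0.15 SE did not pass (adjusted p = 0.104), but reached 0.53 (adjusted p = 0.00695) without that pig.

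NFKB1, which encodes the other precursor subunit (chr8:118391010-118478927, minus strand), moved in a narrow range, with group means from 29.9 to 37.8 CPM. With all pigs it was called on MLE. MLE-sham ran from 24.2 to 35.6 CPM (median 29.4) and MLE-BDL from 26.6 to 38.2 CPM (median 36.0), a log2 fold change of 0.21 ± 0.07 SE (1.16-fold, adjusted p = 0.0349). The groups overlapped over most of their range, and 4 of 8 ligated pigs exceeded every sham pig. This call was kept in 12 of 17 fits that left out one pig, and it was lost with the replicate number as a block (adjusted p = 0.0527), without a filter (0.0578), and in a fit of the MLE groups alone (0.08, edgeR). On ENT the difference was 0.13 ± 0.06 SE (adjusted p = 0.147).

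**Figure D3:**
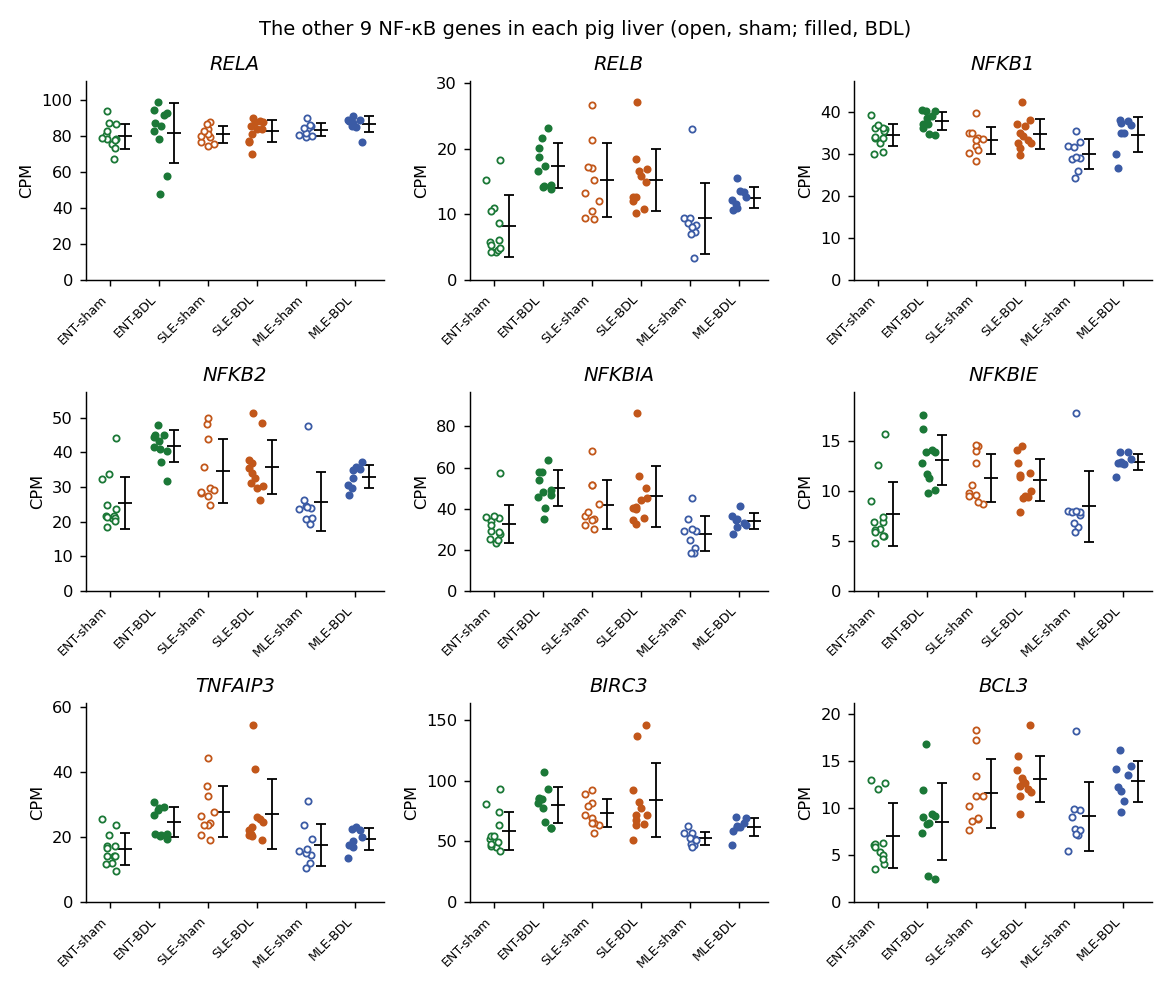
Level in CPM (y axes, each from 0) of the other 9 NF-κB genes in each liver by group (x axes), with open points for sham, filled points for BDL, and bars for mean ± SD. RELA means stay between 79.9 and 86.5 CPM, and the lone high MLE-sham point in RELB, NFKB2, NFKBIE, and BCL3 is replicate 2.

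Both inhibitor genes lie on chromosome 7. NFKBIE, which encodes IκBε (chr7:39255078-39266085, minus strand), ran from 4.86 to 15.7 CPM in ENT-sham (median 6.53) and from 9.79 to 17.6 CPM in ENT-BDL (median 13.3). It rose by 0.76 ± 0.16 SE on the log2 scale (1.70-fold, adjusted p = 0.000271), and sham replicates 2 and 10 were the libraries inside the BDL range. In MLE-sham it ran from 5.95 to 17.8 CPM (median 7.91) and in MLE-BDL from 11.4 to 13.9 CPM (median 12.9). All 8 ligated MLE pigs lay above 8 of the 9 sham pigs, the exception being replicate 2, and NFKBIE rose by 0.61 ± 0.18 SE (1.52-fold, adjusted p = 0.0128). On SLE the medians were 10.2 CPM in sham and 11.4 CPM in ligated pigs, with a log2 difference of -0.02 (95% interval -0.34 to 0.30).

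NFKBIA, which encodes IκBα (chr7:64508119-64510754, plus strand), had medians of 30.6 CPM in ENT-sham (23.5 to 57.5) and 48.7 CPM in ENT-BDL (35.2 to 63.8). It rose by 0.62 ± 0.15 SE (1.53-fold, adjusted p = 0.00195), and sham replicate 2 at 57.5 CPM stood well above the next sham pig at 36.4 CPM. Neither PN diet gave a call. The medians were 37.4 and 40.9 CPM in SLE-sham and SLE-BDL, and 29.3 and 33.9 CPM in MLE-sham and MLE-BDL, with log2 differences of 0.13 ± 0.15 SE and 0.28 ± 0.17 SE. SLE-BDL replicate 9 carried the highest level of the series, 86.3 CPM, against 55.9 CPM in the next pig of its group.

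TNFAIP3, a ubiquitin-editing enzyme that shuts off signalling to IKK (chr1:26474158-26489771, minus strand), had medians of 15.5 CPM in ENT-sham (9.67 to 25.8) and 24.0 CPM in ENT-BDL (19.6 to 30.8). It rose by 0.58 ± 0.17 SE (1.5-fold, adjusted p = 0.0104), with 5 of 10 ligated pigs above every sham pig. On SLE and MLE the log2 differences were -0.04 ± 0.17 SE and 0.14 ± 0.19 SE. BIRC3, a ubiquitin ligase of the TNF receptor complex (chr9:33003570-33020252, plus strand), had medians of 53.1 CPM in ENT-sham (42.5 to 93.0) and 83.3 CPM in ENT-BDL (60.7 to 107). It rose by 0.45 ± 0.13 SE (1.37-fold, adjusted p = 0.0104), and 2 of 10 ligated pigs exceeded every sham pig. On SLE and MLE the differences in BIRC3 were 0.20 ± 0.13 SE and 0.24 ± 0.15 SE, and neither passed.

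BCL3, a nuclear IκB protein that works with subunit homodimers on DNA (chr6:51256033-51264923, plus strand), lies 179746 bases from RELB. It ran from 3.56 to 13.0 CPM in ENT-sham (median 6) and from 2.5 to 16.8 CPM in ENT-BDL (median 8.74). The low end of the ligated group was replicates 4 and 5 (2.84 and 2.5 CPM), and the other 8 pigs ran from 7.41 CPM upwards, all above the sham median. The log2 difference was 0.28 ± 0.22 SE (adjusted p = 0.409), and 0.52 (adjusted p = 0.0682) without those pigs. Differences on SLE and MLE were 0.18 ± 0.22 SE and 0.49 ± 0.25 SE (adjusted p = 0.731 and 0.181), and on MLE without MLE-sham replicate 2 BCL3 was higher by 0.69 (adjusted p = 0.0475).

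The sham groups separated the diets without ligation. Against ENT-sham, 6 of the 10 genes were higher in SLE-sham (IKBKE, RELB, NFKB2, NFKBIE, TNFAIP3, and BCL3), where 13.7% of all genes were higher, and none was lower, where 13.8% were. IKBKE alone also passed 2-fold, against 2.42% of genes. IKBKE differed by 1.34 ± 0.19 SE on the log2 scale (2.53-fold, adjusted p = 2.34e-07), with 4 of 10 SLE-sham pigs above every ENT-sham pig. RELB differed by 0.88 ± 0.22 SE (adjusted p = 0.0018), TNFAIP3 by 0.76 ± 0.17 SE (adjusted p = 0.000382), and BCL3 by 0.71 ± 0.22 SE (adjusted p = 0.0111). NFKBIE and NFKB2 were higher by 0.55 ± 0.16 SE and 0.45 ± 0.13 SE. This comparison shares its ENT-sham pigs with the BDL comparison on ENT. IKBKE, RELB, NFKB2, NFKBIE, and TNFAIP3 were called in both, whereas NFKBIA and BIRC3 were called with BDL and BCL3 between sham groups. Without the library labelled ENT-sham replicate 2 the count between sham groups was 8, adding NFKBIA (0.47, adjusted p = 0.00861) and BIRC3 (0.41, adjusted p = 0.0115), where 14.7% of all genes were then higher, and it was also 8 without both matching libraries (14.9%). Cell type markers moved in this contrast as well. The summed cholangiocyte markers had medians of 78.9 CPM in ENT-sham and 187 CPM in SLE-sham, with 2 of 7 higher (3 without the matching pair). The list did not move as a whole, with 4 of the 7 log2 fold changes above 0 and a median of 0.0471 (0.373 without the pair). The erythroid markers had medians of 1150 and 430 CPM, with 2 of 6 lower. Of 9 macrophage markers 2 were higher and 2 lower (2 and 5 without the pair), and of 6 hepatocyte markers 1 was higher and 2 lower. Their part in the difference between sham groups was not tested.

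Between MLE-sham and ENT-sham NFKB1 alone passed, lower in MLE-sham by 0.21 ± 0.06 SE on the log2 scale (log2 fold change -0.21, adjusted p = 0.0141). This was 1 of the 10 genes, near the share of all genes that were lower, 10.4%. The NFKB1 call was lost with the number in the pig identifier as a term. IKBKE differed by 0.39 ± 0.20 SE (adjusted p = 0.165), and by 0.59 (adjusted p = 0.0162) without the library labelled ENT-sham replicate 2, where 11.3% of all genes were higher. Against SLE-sham, IKBKE was lower in MLE-sham with a log2 fold change of -0.95 ± 0.21 SE (adjusted p = 0.0116), the only gene called of the 10, where 0.580% of all genes were lower. A further 7 genes had an unadjusted p under 0.05 that did not survive adjustment. With the number in the pig identifier as a further term, of which the MLE pigs carry 4 of 8 values, the log2 fold change was -0.79 and the adjusted p 0.0718. Without MLE-sham replicate 2, 6 genes were lower, where 0.864% of all genes were, namely IKBKE (log2 fold change -1.08), RELB (-0.98), NFKB2 (-0.59), NFKBIA (-0.71), NFKBIE (-0.62), and TNFAIP3 (-0.81). Over the fits without a single pig the count ran from 1 to 6, and this pig was singled out on these same genes.

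**Figure D4:**
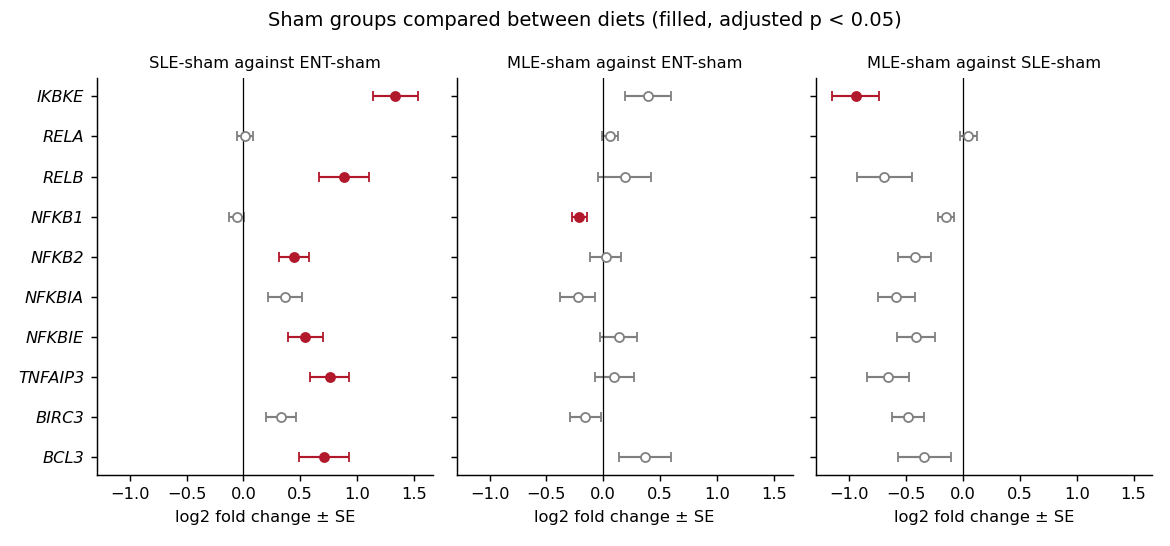
Log2 fold change (x axis, ± SE of the edgeR model) of the 10 NF-κB genes (y axis) between sham groups on different diets, with filled red points for genes past the adjusted p threshold. SLE-sham stands above ENT-sham in 6 genes (6 to 8 in fits without a single pig). IKBKE separates MLE-sham from SLE-sham (-0.95), a call lost with the number in the pig identifier as a term.

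After ligation, 1 of the 10 genes passed in SLE-BDL against ENT-BDL and 1 in MLE-BDL against ENT-BDL, each near the share over all genes. BCL3 was higher in SLE-BDL than in ENT-BDL by 0.60 ± 0.22 SE on the log2 scale (adjusted p = 0.0475), where 9.88% of all genes were higher, and this call was kept in 8 of 21 fits without one pig and without the matching pair (0.67, adjusted p = 0.0278), and lost without ENT-BDL replicates 4 and 5. NFKBIA was lower in MLE-BDL than in ENT-BDL (log2 fold change -0.56 ± 0.17 SE, adjusted p = 0.0135), where 8.86% of genes were lower, and without the matching pair the value was -0.53 (adjusted p = 0.0134). Means of NFKBIA were 34.0 ± 3.96 CPM in MLE-BDL and 49.9 ± 8.68 CPM in ENT-BDL. Between MLE-BDL and SLE-BDL none of the 10 genes passed, where 0.950% of all genes did in either direction, although 3 had an unadjusted p under 0.05 (edgeR). DESeq2 also made 0 calls there. The IKBKE difference between these groups was -0.21 (95% interval -0.62 to 0.20).

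The change with BDL was itself compared between diets by an interaction term. Relative to ENT, the response on SLE was smaller for IKBKE (log2 difference -1.23 ± 0.27 SE, 95% interval -1.77 to -0.68, adjusted p = 0.00631), NFKBIE (-0.78 ± 0.22 SE, adjusted p = 0.0409), and NFKB2 (-0.67 ± 0.19 SE, adjusted p = 0.0439). These were 3 of 10 genes, where 1.11% of all genes had a lower response. RELB stood just outside the threshold at -1.08 ± 0.32 SE (adjusted p = 0.052). The IKBKE result held in all 43 fits that left out one pig and without the matching pair (-1.45, adjusted p = 0.000134), when RELB also passed (-1.23, adjusted p = 0.0105) and 2.25% of all genes had a lower response. RELB also passed without ENT-BDL replicates 4 and 5 (-1.15, adjusted p = 0.0441), where 1.17% of all genes had a lower response. NFKB2 and NFKBIE passed in 17 and 23 of the 43 fits, and with the identifier number as a term IKBKE alone passed (-1.17, adjusted p = 0.0135). Between MLE and ENT no gene differed in response, where 0.0802% of all genes did, and none had an unadjusted p under 0.05 (edgeR), while DESeq2 also made 0 calls. The interval for IKBKE ran from -1.08 to 0.09. Between MLE and SLE no gene passed either, where 0.278% of genes did. IKBKE (0.74) and NFKBIE (0.63) had an unadjusted p under 0.05 there (edgeR), and DESeq2 made 0 calls.

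Beyond the 10 genes, 112 other genes of the pathway could be tested. With BDL on ENT 20 of them rose and 7 fell, on SLE 8 rose and 0 fell, and on MLE 19 rose and 4 fell. Over all genes the shares were 8.78% higher and 8.66% lower on ENT, 2.86% and 1.68% on SLE, and 7.23% and 7.20% on MLE, beside 17.9%, 7.14%, and 17% higher among the pathway genes. Without the matching pair 20 rose and 8 fell on ENT. Medians of their log2 fold changes were 0.11 on ENT, 0.10 on SLE, and 0.23 on MLE. Of the 29 target genes outside the 10, 13 rose and 1 fell on ENT, 5 rose on SLE, and 11 rose and 1 fell on MLE. CXCL8, a neutrophil attractant, was called on all diets, by 2.89 ± 0.53 SE on ENT, 2 ± 0.56 SE on SLE, and 3.72 ± 0.69 SE on MLE. The library labelled ENT-sham replicate 2 weighed on that gene: ENT-sham averaged 4.55 ± 12.8 CPM with it, and without the matching pair 0.844 ± 0.326 CPM (n = 11), where the log2 fold change on ENT was 5.32 ± 0.33 SE. CCL20, another chemokine, rose by 2.31 ± 0.54 SE on ENT and 2.77 ± 0.66 SE on MLE, with 3.16 ± 0.56 SE on ENT without the matching pair. The gelatinase MMP9 rose by 1.94 ± 0.50 SE on SLE. Thus target genes were called on SLE although none of the 10 genes was. CXCL8, CCL20, MMP9, and TRAF3 also belong to the genes the study displayed from these libraries.

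TNFRSF12A, the TWEAK receptor that feeds the noncanonical route, was the largest change among the receptors, by 2.43 ± 0.37 SE on ENT (3.43 ± 0.26 SE without the matching pair) and 2.38 ± 0.41 SE on MLE. IL1RAP, the accessory chain of the IL-1 receptor, rose by 0.40 ± 0.12 SE on ENT and 0.42 ± 0.12 SE on SLE, where IL1R1 rose by 0.41 ± 0.12 SE. NOD1, a sensor of bacterial cell wall, rose by 0.75 ± 0.19 SE on MLE. Of the 21 adaptors tested, 2 rose and 5 fell on ENT, where 8.78% of all genes were higher and 8.66% lower, with TRAF3, which restrains the noncanonical route, higher by 0.90 ± 0.15 SE, and TBKBP1, an adaptor of the kinase TBK1, with a log2 fold change of -0.83 ± 0.14 SE. Without the matching pair 2 adaptors rose and 6 fell, where 10.7% of all genes were higher and 10.2% lower. TRAF3 then stood at 1.01 ± 0.14 SE and TBKBP1 at -0.98 ± 0.13 SE. On MLE TRAF5 rose by 0.97 ± 0.32 SE. Of the 13 IKK complex genes and related kinases, 3 rose on ENT, among them IRAK4 (0.42 ± 0.14 SE) and IKBKG (0.31 ± 0.10 SE), and none on SLE or MLE by edgeR or DESeq2, where 1 and 2 genes had an unadjusted p under 0.05. Among the 5 other subunit and IκB genes, REL rose on ENT by 0.49 ± 0.12 SE. On MLE 2 of 12 deubiquitinase and linear ubiquitin genes rose, OTUD7B (0.24 ± 0.08 SE) and ITCH (0.24 ± 0.07 SE). None of the 9 ligands tested passed on any diet by edgeR or by DESeq2 (0 calls each), and those with an unadjusted p under 0.05 were 2 lower on SLE and 1 higher and 1 lower on MLE. Of the 12 genes of the interferon regulatory factor branch, through which IKKε also signals, none rose with BDL on any diet by edgeR or DESeq2, with an unadjusted p under 0.05 for 1 higher gene on ENT, 0 on SLE, and 1 on MLE, and MAVS fell on ENT (log2 fold change -0.30 ± 0.08 SE). The median log2 fold change of this branch was -0.32 on ENT, with 1 of 12 genes above 0, and 0.37 on SLE and 0.69 on MLE, with 11 of 12 genes above 0 on each. The difference between diets was not tested for this list. Without the matching pair IL1RAP (0.44 ± 0.12 SE), IRAK4 (0.44 ± 0.15 SE), IKBKG (0.32 ± 0.11 SE), REL (0.54 ± 0.125 SE), and MAVS (-0.34 ± 0.08 SE) kept their calls on ENT.

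Levels of the 10 genes were also compared from pig to pig. Spearman's rho over the 60 livers, as a description across pigs that share groups and sequencing depth, had a median of 0.581 over the 45 gene pairs, with RELB and NFKB2 the closest (0.90) and RELA and BIRC3 the least alike (0.0404). After the 6 group means were removed the median was 0.465, and 44 of 45 pairs stayed positive. RELB and NFKBIA (0.749) and NFKBIA and TNFAIP3 (0.754) were then the closest, while the values of RELA ran from -0.0215 (BIRC3) to 0.376 (RELB). Other sets of genes were not compared in this way, so whether these values are high for genes in liver was not tested. Residual values without the matching pair were not computed. The genes most like IKBKE over the 60 livers were RRAS (rho 0.836), TRAF3 (0.816), TNFRSF9 (0.813), ELF3 (0.807), and NFKB2 (0.797), and on residuals from the group means these values were 0.601, 0.693, 0.591, 0.448, and 0.619.

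**Figure D5:**
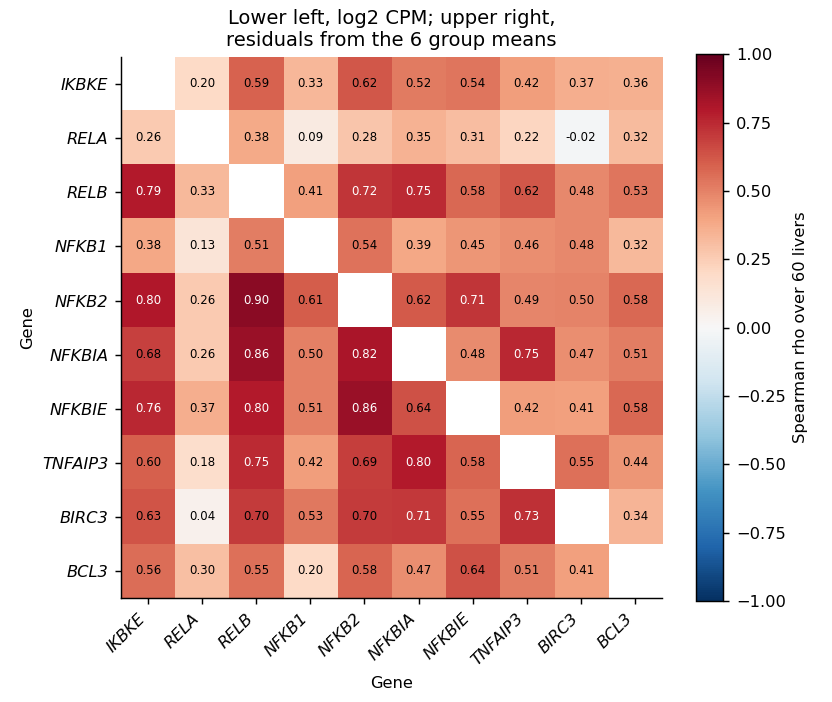
Spearman's rho between each pair of the 10 NF-κB genes (both axes) over 60 livers, on log2 CPM in the lower left and on residuals from the 6 group means in the upper right, with color from -1 to 1. RELA stands apart from the rest, and RELB and NFKB2 are the closest pair (0.90).

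Single livers stood high in several of the genes at once. MLE-sham replicate 2 had the highest level of its group in 8 of the 10 genes, SLE-BDL replicate 9 in 7, the library labelled ENT-sham replicate 2 in 6, and SLE-sham replicate 8 in 6. In MLE-sham replicate 2 the summed CPM was 79.1 for T and NK cell markers against a median of 32.8 in the other pigs of its group, 2440 against 1630 for macrophage and Kupffer cell markers, and 98.8 against 110 for cholangiocyte markers. SLE-sham replicate 8 was the highest of its group in neutrophil (30 against 13.9), macrophage (2050 against 1650), and endothelial markers (947 against 668). It was the lowest of its group in hepatocyte (87900 against 99000) and stellate cell markers (415 against 633). SLE-BDL replicate 9 had 1390 against 834 for stellate cell markers and ranked 2 of 11 in cholangiocyte markers, where the other pigs had a median of 234. In B and plasma cell markers it ranked 11 of 11, and in T and NK cell, macrophage, and endothelial markers 9 of 11. In the library labelled ENT-sham replicate 2 the sum of cholangiocyte markers was 333, against a median of 78.2 in the other ENT-sham pigs and of 232 in ENT-BDL, and the stellate cell sum was 1470 against 479.

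Markers of other liver cell types moved with some of the groups. Over all genes 8.78% were higher and 8.66% lower with BDL on ENT (10.7% and 10.2% without the matching pair). The shares were 2.86% and 1.68% on SLE, and 7.23% and 7.20% on MLE. In lists this short, a count of 1 is not read as a change of a cell type. The sample label was borne out by hepatocyte markers such as albumin and transferrin, whose sum ran from 62200 to 135000 CPM over all livers. Of 6 hepatocyte markers, 1 was higher and 3 lower with BDL on ENT, 0 were called on SLE (edgeR), and 4 were lower on MLE, where the median sum was 105000 CPM in sham and 77200 CPM in ligated pigs. The summed level of stellate cell and myofibroblast markers had medians of 490 CPM in ENT-sham and 897 CPM in ENT-BDL, 621 and 878 CPM on SLE, and 566 and 1340 CPM on MLE. Of these 6 markers 1 was lower on ENT (1 higher and 1 lower without the matching pair), 2 were higher on SLE, and 1 was higher and 1 lower on MLE. Of 7 cholangiocyte markers, 5 rose with BDL on ENT (6 without the matching pair), 1 on SLE, and 6 on MLE. Their summed level ran from 58.3 to 333 CPM in ENT-sham and from 182 CPM upwards in ENT-BDL (median 232), from 124 to 297 CPM in SLE-sham and 142 to 357 CPM in SLE-BDL, and from 83.5 to 133 CPM in MLE-sham and 156 to 343 CPM in MLE-BDL. IKBKE correlated with this sum over 60 livers with a rho of 0.654, and with -0.067 after the group means were removed. For the neutrophil sum the values were 0.555 and 0.421, the highest of the 9 lists after the group means were removed, and for the other 7 lists the residual values lay between -0.201 and 0.154. Macrophage and Kupffer cell markers counted 1 higher and 3 lower of 9 on both ENT (1 and 5 without the matching pair) and MLE, with group medians of the sum between 1200 and 1990 CPM. Of 6 neutrophil markers 1 was higher on each diet, and the sum ran from 4.17 to 59.2 CPM over all livers, with S100A8, S100A9, and S100A12 at 0 in 1 liver each. Of 6 erythroid markers 2 were lower with BDL on MLE, where the median sum was 511 CPM in sham and 211 CPM in ligated pigs. Of 8 T and NK cell markers 1 was lower on SLE, with a median log2 fold change of -0.69 over the list, and of 5 B and plasma cell markers tested 1 was lower on MLE. Of 6 endothelial markers 1 was lower on ENT. B cell markers were low, with MS4A1 at 0 in 8 livers and a median of 3 reads. The part of these cell types in the NF-κB results was not tested.

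For 5 of the 10 genes another annotated feature overlaps the span of the gene (IKBKE, RELB, NFKB2, NFKBIA, and NFKBIE), and whether counting used strand is not given in the sources used here. The overlapping features averaged 2.25 to 40.5 reads per library, with TMEM151B on the opposite strand of NFKBIE the highest.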

How the data were processed

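RNA was measured in 60 liver libraries, assigned to 6 groups from the diet and surgery in their labels. The authors trimmed reads with fastp, aligned them with HISAT2 2.0.5 to Sscrofa11.1, used StringTie 1.3.3, and deposited raw counts per gene from featureCounts 1.5.0-p3 without normalization. The versions come from the submitters' processing notes. The column of gene lengths was used for levels per kilobase only. The 24 features without a gene name (0.00842% to 0.0407% of counts) were left out.

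Low genes were removed with filterByExpr, libraries were scaled by TMM, and genes were tested on all 60 pigs with the quasi-likelihood test of edgeR 4.0.16 (estimateDisp, glmQLFit with robust=TRUE, glmQLFTest) in R 4.3.3, with Benjamini-Hochberg adjustment over 16210 genes and a threshold of 0.05. The SE is the log2 fold change over the square root of F, and intervals are at 95% from it with 54 degrees of freedom. Log2 CPM used a prior count of 2. Alternatives were a further threshold of over 2-fold, as the study used, DESeq2 1.42.0, a fit of the groups compared, RLE scaling, no filter, 10 counts in every pig, blocks for the replicate or identifier number, and leaving out pigs. Promoter sequences were not analysed here. The test was tried on simulated data.

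The 10 genes and the pathway and marker lists were chosen with earlier results of these data known. All 10 genes are named. From other pathway lists, those named were the 2 genes per list and BDL comparison that changed most past the threshold, where their log2 CPM averaged 0 or more, and the 5 genes (LOC symbols aside) with the highest rho with IKBKE. One gene that this rule names is not reported here. Of 118 other pathway genes 116 matched a symbol and 112 were tested. Precision was set by 8 to 12 pigs a group and 14469788 to 21374161 reads a library. The SD over pigs includes counting error. Nothing in the sources pairs pigs across groups by replicate number.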

Additional observations from a re-analysis of the deposited data

Results flagged for a closer look

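Of 40 combinations of a gene and a group of 8 to 10 pigs, 7 had 1 pig far from the rest by Dixon's test, where chance flags about 1 in 20. MLE-sham replicate 2 gave 5 of them, so leaving it out was a choice made on these same genes. It read 9.67 CPM for IKBKE against 6.74 CPM in the next pig, 23.0 against 9.43 CPM for RELB, 47.7 against 26.4 CPM for NFKB2, 17.8 against 8.07 CPM for NFKBIE, and 18.2 against 9.88 CPM for BCL3. Its part in the MLE comparisons is shown by the values without it: 6 genes rose with BDL on MLE, where 7.55% of all genes did, with IKBKE at 1.14, NFKBIE at 0.82, RELB at 0.71, BCL3 at 0.69 (adjusted p = 0.0475), NFKB2 at 0.53, and NFKB1 at 0.25 on the log2 scale (edgeR). The other pigs singled out were low. RELA read 76.5 CPM in MLE-BDL replicate 7 against 85.1 CPM in the next pig, and BIRC3 read 46.8 CPM in MLE-BDL replicate 1 against 59.0 CPM.

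The response to BDL differed between SLE and ENT by the interaction test for IKBKE (-1.23), NFKB2 (-0.67), and NFKBIE (-0.78). SLE-BDL replicate 9 bore on this count, since 5 genes passed without it, where 0.969% of all genes had a lower response, adding RELB (-1.19, adjusted p = 0.0274) and TNFAIP3 (-0.77, adjusted p = 0.0488).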

How the results depend on the processing

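Over all alternatives, 666 of the called values of single genes kept their call and 98 lost it, 65 values not called before passed the threshold, and none changed direction while called. The 7 calls with BDL on ENT stood in every fit without one pig (range 7 to 7) and under every other alternative except the 2-fold threshold, which left 2, and no alternative gave a call on SLE (0 to 0). With 2-fold required, counts were 1 for MLE, 1 for SLE-sham against ENT-sham, 1 for the response on SLE against ENT, and 0 for the other comparisons. The interaction count of 3 became 1 with edgeR on the groups compared, 1 without a filter, and 1 with the identifier number as a block, and 4 with DESeq2, with 10 counts in every pig, and without the matching pair. For MLE-BDL against ENT-BDL the count of 1 became 4 on the groups compared and 2 with the identifier block. For SLE-BDL against ENT-BDL it became 0 on the groups compared, 0 without a filter, and 0 without ENT-BDL replicates 4 and 5, an alternative chosen after seeing the data that also gave 8 calls with BDL on ENT (adding RELA) and 4 for the response on SLE against ENT. For MLE-sham against ENT-sham it became 0 with the identifier block and 2 without the matching pair. For MLE-sham against SLE-sham it became 4 with DESeq2, 2 on the groups compared, 0 with the identifier block, 2 with the replicate block, and 4 without the matching pair. RLE scaling changed no count. Leaving out one pig at a time gave 2 to 6 calls for MLE, 0 to 1 for SLE-BDL against ENT-BDL, 1 to 2 for MLE-BDL against ENT-BDL, 6 to 8 for SLE-sham against ENT-sham, 1 to 2 for MLE-sham against ENT-sham, 1 to 6 for MLE-sham against SLE-sham, and 1 to 5 for the response on SLE against ENT. MLE-sham replicate 2 gave both counts of 6 for MLE comparisons, ENT-BDL replicate 2 the 2 for MLE-BDL against ENT-BDL, and the library labelled ENT-sham replicate 2 the 2 for MLE-sham against ENT-sham. For MLE-sham against SLE-sham, leaving out MLE-sham replicate 8 or SLE-sham replicate 1, 3, or 9 gave 3, and SLE-sham replicate 2 or 7 gave 2. NFKB1 on MLE was lost without MLE-BDL replicate 3 or 5 or MLE-sham replicate 3, 5, or 8, without a filter (adjusted p = 0.0578, 2 calls on MLE), and on the groups compared (0.08), where BIRC3 passed (0.0288, edgeR). The cause of these changes was not tested.

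Replicate numbers did not pair the pigs: residual correlations of 82 same-numbered pairs ran from -0.232 to 0.381 with a median of -0.0111, and 20 exceeded 0.1. Pigs with the same identifier number had a mean residual correlation of 0.133, against -0.0178 for other pigs. With the replicate block the counts were 7 on ENT, 0 on SLE, 2 on MLE, and 2 for the response on SLE against ENT, with NFKB1 on MLE at an adjusted p of 0.0527 (edgeR). The MLE pigs carry 4 of the 8 identifier numbers, so diet and number overlap in part.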
